A study of Mus musculus with 4 samples.

Results

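The genes described here are 10 small leucine-rich proteoglycan genes (Dcn, Bgn, Lum, Kera, Fmod, Ogn, Omd, Prelp, Aspn and Epyc), taken by symbol from a deposited table of 22558 genes. All 10 symbols were listed, and all 10 had a mean of at least 1 FPKM over the conditions, so none was lost to the filter on low values. FPKM counts the fragments of a gene relative to the length of its transcript and to the depth of the library, so levels can be set side by side between genes. The samples were whole eyes of 6-week-old Abca4-/-Rdh8-/- mice, which lack a photoreceptor flippase and a photoreceptor retinol dehydrogenase and serve to model retinal damage by light. The control group (CON) had no light exposure, and the other groups were collected 3 h (LE3), 24 h (LE24) and 7 days (LE7) after light exposure, each described as eyes of 3 mice. All 4 groups carry both knockouts, so no wild-type eye was compared. The sources used here state neither how strong and how long the exposure was nor the sex of the animals. The extraction protocol speaks of retinas whereas the tissue label says whole eye. The table holds 1 value per gene and condition, so no difference below has a replicate check and no p-value is given.

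Small leucine-rich proteoglycans are secreted proteins of the extracellular matrix, built from a curved core of leucine-rich repeats that most often carries sulfated sugar chains. They bind collagen fibrils and control their diameter and spacing, on which the clarity of the cornea and the strength of the sclera depend. Classes I, II and III of the family differ in the spacing of cysteines near the start of the core protein. Dcn, Bgn and Aspn belong to class I, Lum, Kera, Fmod, Prelp and Omd to class II, and Ogn and Epyc to class III.

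The proteoglycan genes were expressed at very different levels, and their order was the same in every condition except that Lum stood above Fmod at 3 h and 24 h. Dcn, which encodes decorin, a chondroitin or dermatan sulfate proteoglycan that also binds TGF-beta, was at 768.5 FPKM in the control, 759.7 after 3 h, 728 after 24 h and 846 after 7 days. It ranked between 69 and 98 among all listed genes and made up 56.5% to 59.4% of the summed FPKM of the 10 genes. Its lowest value was 4.7 times the highest value of any other member.

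The keratan sulfate proteoglycans of the corneal stroma came next, together with fibromodulin and biglycan. Lum, which encodes lumican, was at 124.7 FPKM in the control, 126.1 after 3 h, 127.8 after 24 h and 138.3 after 7 days, the narrowest range of the 10 on the log2 scale (0.15). Kera, which encodes keratocan and is used as a marker of corneal keratocytes, was at 89.6, 80.6, 75.1 and 86.1 FPKM in the same order. Fmod, which encodes fibromodulin, a collagen-binding proteoglycan of tendon and sclera, was at 147.5, 110.9, 112.0 and 153.6 FPKM. Its control and 7-day values lay together at the top and its 3 h and 24 h values together at the bottom. Bgn, which encodes biglycan, a close relative of decorin, was at 93.2, 80.8, 81.5 and 104.3 FPKM, with its control value about midway between the lower pair and the 7-day value.

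Ogn, which encodes osteoglycin (mimecan), was at 77.6 FPKM in the control, 72.2 after 3 h, 67.0 after 24 h and 81.7 after 7 days. Prelp, whose product has a basic start that can tie basement membranes to collagen, was at 30.01, 20.1, 26.2 and 31.8 FPKM, the widest range of the 10 on the log2 scale (0.64). Its 3 h value stood lowest, apart from the others. Aspn, which encodes asporin, a class I member with an aspartate stretch, was at 16.5, 15.6, 13.2 and 15.5 FPKM. Omd, which encodes osteomodulin, was at 8.22, 9.47, 7.61 and 8.50 FPKM, and was the only member with its highest value at 3 h. Epyc, which encodes epiphycan and is best known from growth plate cartilage, was lowest of all at 4.43, 3.65, 3.92 and 4.35 FPKM.

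In order of mean level the genes stood as Dcn, Fmod, Lum, Bgn, Kera, Ogn, Prelp, Aspn, Omd and Epyc, with the mean of Dcn 189.7 times that of Epyc. The ranges over the 4 conditions overlapped between Fmod and Lum, between Bgn and Kera and between Kera and Ogn, so neighbours in those pairs did not differ beyond their spread over conditions, although within each condition Bgn stood above Kera and Kera above Ogn. The other neighbours in the order did not overlap. Summed over the 10 genes, the level was 1360.3 FPKM in the control, 1279 after 3 h, 1243 after 24 h and 1470.4 after 7 days, or 0.217%, 0.188%, 0.188% and 0.219% of all FPKM. Of the 10 genes, 6 had their highest value at 7 days and 9 their lowest at 3 h or 24 h, Lum being lowest in the control.

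**Figure D1:**
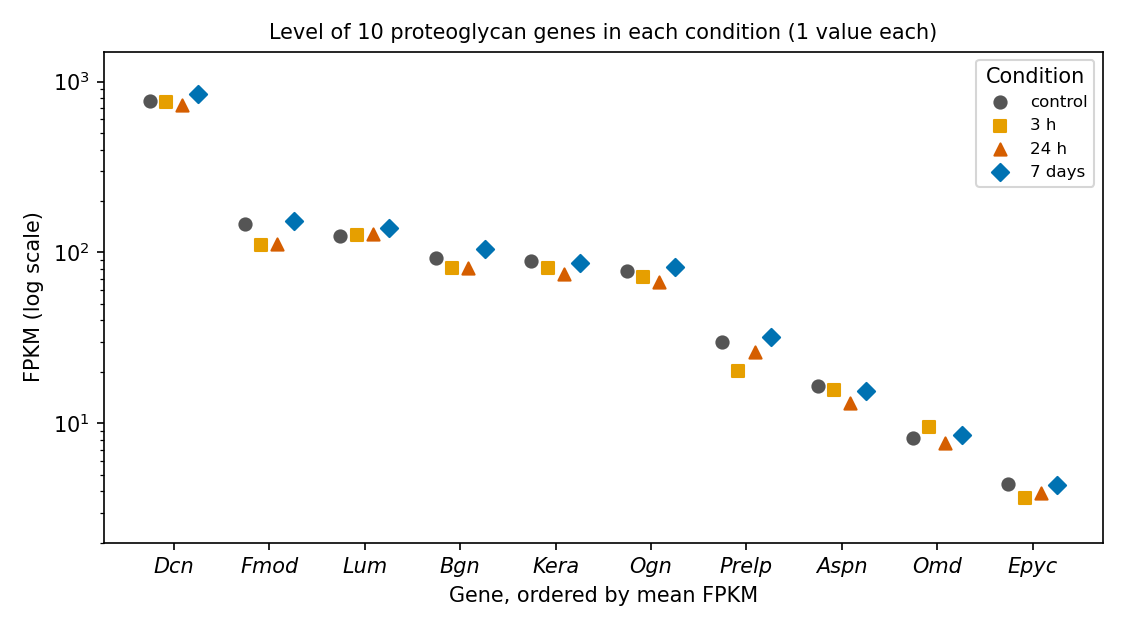
Level of each of the 10 genes in FPKM on a log axis, with 1 point per condition (control, 3 h, 24 h and 7 days after light). Dcn stands alone at 728 to 846 FPKM, a middle group from Fmod to Ogn lies between 67.0 and 153.6, and the points of 1 gene lie close together, most spread for Prelp (20.1 to 31.8).

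The depth behind these values is known only approximately, because read counts were not used here. Olfactory receptor genes listed above 0 in a single condition gave a median of 0.0448 FPKM in the control, 0.0467 after 3 h, 0.0349 after 24 h and 0.0255 after 7 days, which should stand for about 1 fragment on a short transcript. On that scale the counting error was 0.549% to 0.784% of the value for Dcn, 2.83% to 4.82% for Prelp, 5.47% to 7.38% for Omd and 7.65% to 11.3% for Epyc. These errors cover counting only. Most differences of Epyc between conditions were of the size of its counting error. In whole-eye RNA, fewer cells of a type and less RNA per cell cannot be told apart.

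The label of cornea and sclera was set against marker genes. Krt12, the keratin of corneal epithelium, was at 1680.2, 2171, 2029 and 2151 FPKM in the 4 conditions in time order, and Aldh3a1, a corneal crystallin, was at 1250.5, 1557, 1637 and 1591 FPKM. All 10 listed keratocyte genes and all 15 listed fibroblast genes passed the filter. So did 14194 of all 22558 genes, so passing it does not by itself mark a tissue. Aldh3a1 is on both the keratocyte and the surface epithelium list, and no list of scleral genes was used. Of 16 cartilage and bone genes, 7 stayed under 1 FPKM in every condition, with Ibsp listed at 0 throughout, Acan at no more than 0.0783 FPKM and Matn1 at no more than 0.0211 FPKM. The other 9 passed the filter, among them Comp (15.4, 15.6, 14.8 and 18.2 FPKM) and Col9a1 (12.8, 9.14, 6.16 and 11.3 FPKM), so cartilage or bone genes were not absent from the samples. Fibroblasts of muscle fascia, conjunctiva, choroid and vessel walls also make decorin, biglycan and osteoglycin. The share of each source in the values was not tested.

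The comparison of light-exposed eyes with the control asked which transcripts differ after light. Changes are given as log2 of (FPKM + 1) in one condition over (FPKM + 1) in the other, which understates changes of low genes, and a gene was counted as past the threshold at an absolute change of at least 1. None of the 10 genes was past it at 3 h, where 0.789% of 14194 genes were, none at 24 h (1.11%) and none at 7 days (0.599%). A list of 10 genes with none past the threshold does not stand apart from this background. At a threshold of 1.5-fold there was again none, against 2.69%, 3.94% and 1.59% of all genes.

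At 3 h, 8 of the 10 genes were below the control, against 45.7% of all genes, and their median was -0.13, against 0.02 over all genes. Prelp was at 0.67 of its control level (log2 change -0.56) and Fmod at 0.75 (-0.41), both below the 5th percentile of all genes, -0.31. Epyc (-0.22), Bgn (-0.20), Kera (-0.15), Ogn (-0.10) and Aspn (-0.08) lay within the range of most genes. Dcn (-0.02) and Lum (0.02) were nearly level with the control, and Omd was higher (0.18). Setting the columns to an equal sum of all genes but those of lens, muscle, blood and surface epithelium moved the median of the 10 to -0.31 and that of all genes to -0.14, and turned Lum below 0. The median of the members minus that of all genes ran from -0.16 to -0.14 over the 3 rescalings and the deposited values.

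At 3 h, fibroblast markers lay on the same side as most of the proteoglycan genes, while keratocyte markers lay on both sides of 0. The fibroblast list had a median change of -0.24, 14 of 15 were below 0, and their summed level was 600.1 FPKM in the control and 509.8 at 3 h. Cd248 (11.7 to 5.18 FPKM) was past the threshold downwards. The keratocyte list was mixed, with a median change of 0.09 and 4 of 10 below 0, against 45.7% of all genes. It summed to 3652 and 4208 FPKM, and Angptl7 (60.9 to 283.9 FPKM) was past the threshold upwards. That sum includes Aldh3a1 (1250.5 to 1557 FPKM), which is also on the surface epithelium list. The side below 0 was not particular to fibroblasts. Endothelium (10 of 10 below 0), pericytes and smooth muscle (8 of 10) and cartilage and bone (7 of 9) shared it. So did most rod genes (14 of 19), other retinal neuron genes (14 of 15) and lens genes (17 of 24). Mostly above 0 were surface epithelium (18 of 18), microglia and macrophages (12 of 16) and skeletal muscle (14 of 24). The part of these lists in the values of the proteoglycan genes was not tested.

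At 24 h, 9 of the 10 genes were below the control, against 48.6% of all genes, with a median of -0.19, against 0.01 over all genes. Fmod was at 0.76 of control (-0.39), just below the 5th percentile of all genes (both -0.39 after rounding). Aspn followed at 0.80 (-0.30), then Kera at 0.84 (-0.25), Ogn at 0.86 (-0.21) and Bgn and Prelp, both at 0.87 (-0.19). Epyc (-0.14), Omd (-0.10) and Dcn (-0.08) differed less, and Lum was at 1.03 times its control level (0.04). Lum turned to the other side of 0 under both rescalings that leave out tissue lists. The 24 h sample also differed in tissue markers, with a fibroblast list median of -0.36 (15 of 15 below 0, summed level 496 FPKM, with Lox past the threshold, 12.98 to 5.84 FPKM) and a skeletal muscle list median of -0.61 (23 of 24 below 0, summed level 3150.2 FPKM in the control and 2091 at 24 h). The rod list had a median of -0.67 (18 of 19 below 0, summed level 18062 FPKM in the control and 11486 at 24 h). Cartilage and bone genes (8 of 9 below 0) and pericyte and smooth muscle genes (9 of 10) were also mostly lower. Lens genes (17 of 24 above 0) and surface epithelium genes (15 of 18) were mostly higher. Whether these lists move the proteoglycan values was not tested.

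At 7 days, 7 of the 10 genes were above the control, against 50.7% of all genes, with a median of 0.07, against 0.00251 over all genes. Bgn was at 1.12 times its control level (0.16), Lum at 1.11 (0.15) and Dcn at 1.10 (0.14), and Prelp (0.08), Ogn (0.07), Fmod (0.06) and Omd (0.04) were less far above it. Aspn (-0.08), Kera (-0.06) and Epyc (-0.02) were below. All 10 lay inside the 5th to 95th percentile of all genes, -0.26 to 0.27. Rescaling without the tissue lists put Fmod, Ogn, Omd and Prelp below 0 and the median at -0.043, while the median of all genes went to -0.094, so that the members minus all genes were at 0.051 (0.063 as deposited). Markers of other cells differed too. The microglia and macrophage list had a median of 1.05, with 8 of 16 past the threshold upwards, against 0.599% of all genes in either direction. Its summed level was 147.2 FPKM in the control and 326.2 at 7 days. The rod list had a median of -0.53 (19 of 19 below 0), and the fibroblast list a median of -0.12 (12 of 15 below 0), on the other side from the members. Their part in the values of the members was not tested. The 4 Y-linked genes of the list summed to 18.5 FPKM at 7 days and to no more than 0.0189 in any other condition, so the 7-day sample held male tissue and the others next to none. Time and sex cannot be told apart in any value at 7 days, including that of the X-linked gene Bgn.

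**Figure D2:**
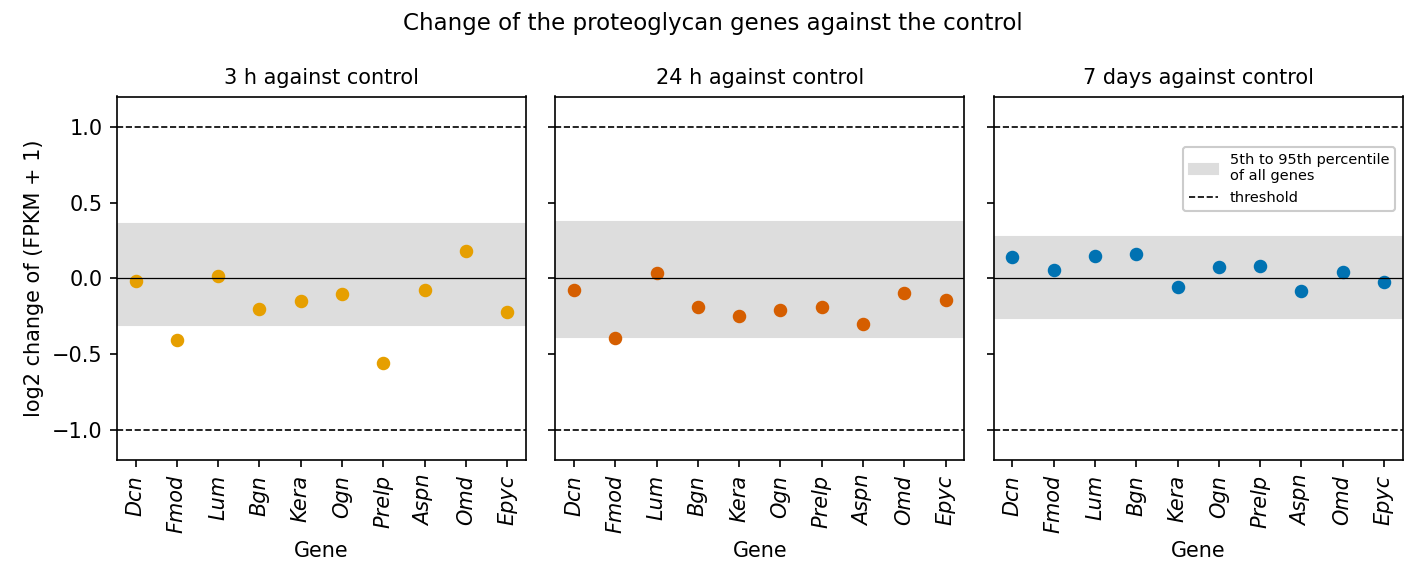
log2 change of (FPKM + 1) against the control for each of the 10 genes, with 1 panel per time. The grey band spans the 5th to 95th percentile of all genes and dashed lines mark the threshold of 1. Every point lies inside the threshold, and Prelp and Fmod at 3 h and Fmod at 24 h lie at or below the lower edge of the band.

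Successive times were set against each other, which leaves out the shared control. From 3 h to 24 h none of the 10 genes was past the threshold (0.951% of all genes), 5 were below 0 (52.5% of all genes) and 5 above, and the median was -0.02. Prelp was higher at 24 h by 0.37 log2 units, while Omd (-0.28) and Aspn (-0.23) were lower. From 24 h to 7 days, again with none past the threshold (0.81%), nor past 1.5-fold (2.53%; 3.55% from 3 h to 24 h), all 10 genes were above 0, against 48.5% of all genes, with a median of 0.22. Fmod was at 1.37 times its 24 h level (0.45), Bgn at 1.28 (0.35) and Ogn at 1.22 (0.28), and Lum differed least at 1.08 (0.11). All 10 remained above 0 under each of the 3 rescalings and with a pseudocount of 0.1. Many other lists moved the same way from 24 h to 7 days, with 12 of 12 collagens above 0 (median 0.32) and 24 of 24 skeletal muscle genes (0.45). Also mostly above 0 were cartilage and bone (8 of 9), endothelium (8 of 10) and pigment epithelium and melanocytes (8 of 9). The same held for rods (16 of 19), other retinal neurons (12 of 15) and glycosaminoglycan breakdown genes (11 of 13). So did 14 of 15 fibroblast genes (0.19), 9 of 10 pericyte and smooth muscle genes (0.24) and 16 of 16 microglia and macrophage genes (0.83). Others did not. Above 0 were 6 of 10 keratocyte genes (0.10), 12 of 24 lens genes (0.00014) and 5 of 10 keratan sulfate enzyme genes (0.03). All 3 erythroid genes that passed the filter were below 0. The part of these lists in the values of the proteoglycan genes was not tested. These comparisons share the 24 h value with those above, so they are not independent of them.

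The collagens that the proteoglycans bind had lower median changes against the control than the proteoglycans at each time after light. Col1a1, a chain of the main fibrillar collagen of cornea and sclera, was at 468 FPKM in the control, 223.9 after 3 h, 230.5 after 24 h and 358 after 7 days. Col3a1, a fibrillar collagen of vessel walls and loose connective tissue, was at 165.9, 76.2, 60.8 and 98.9 FPKM. Of 12 collagens, Col1a1, Col3a1 and Col5a1 (26.1, 12.5, 12.3 and 16.2 FPKM) were past the threshold downwards at 3 h and again at 24 h, and none at 7 days. Past it in either direction were 0.789% of all genes at 3 h, 1.11% at 24 h and 0.599% at 7 days. The median of the 12 was -0.70 at 3 h, -0.73 at 24 h and -0.38 at 7 days, below that of the proteoglycans by 0.57, 0.54 and 0.45 log2 units. At 24 h all 12 collagens lay below the lowest proteoglycan, Fmod, though only just for Col12a1 (-0.41). At 3 h, 9 of the 12 lay below the lowest proteoglycan, Prelp, and at 7 days 11 lay below the lowest, Aspn, with Col2a1 (0.08) above it. These cuts are not alike. Prelp at 3 h and Fmod at 24 h lay below the 5th percentile of all genes (-0.31 and -0.39). Aspn at 7 days (-0.08) lay well above it (-0.26), so many other genes also fall below that cut.

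Ratios within a sample do not depend on the scaling of the library. The ratio of Dcn to Col1a1 was 1.64 in the control, 3.39 after 3 h, 3.16 after 24 h and 2.37 after 7 days, and that of Lum to Col1a1 was 0.266, 0.563, 0.554 and 0.387. For Prelp, the member lowest at 3 h, the ratio to Col1a1 was 0.0641, 0.0897, 0.114 and 0.0888. These ratios were lowest in the control. The ratio of Fmod to Col1a1 moved less than those of Dcn and Lum, from 0.315 in the control to 0.495 after 3 h. Among the proteoglycans themselves, the ratio of Dcn to Bgn ran from 8.11 to 9.41, that of Lum to Kera from 1.39 to 1.70 and that of Lum to Fmod from 0.845 in the control to 1.14 after 24 h.

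**Figure D3:**
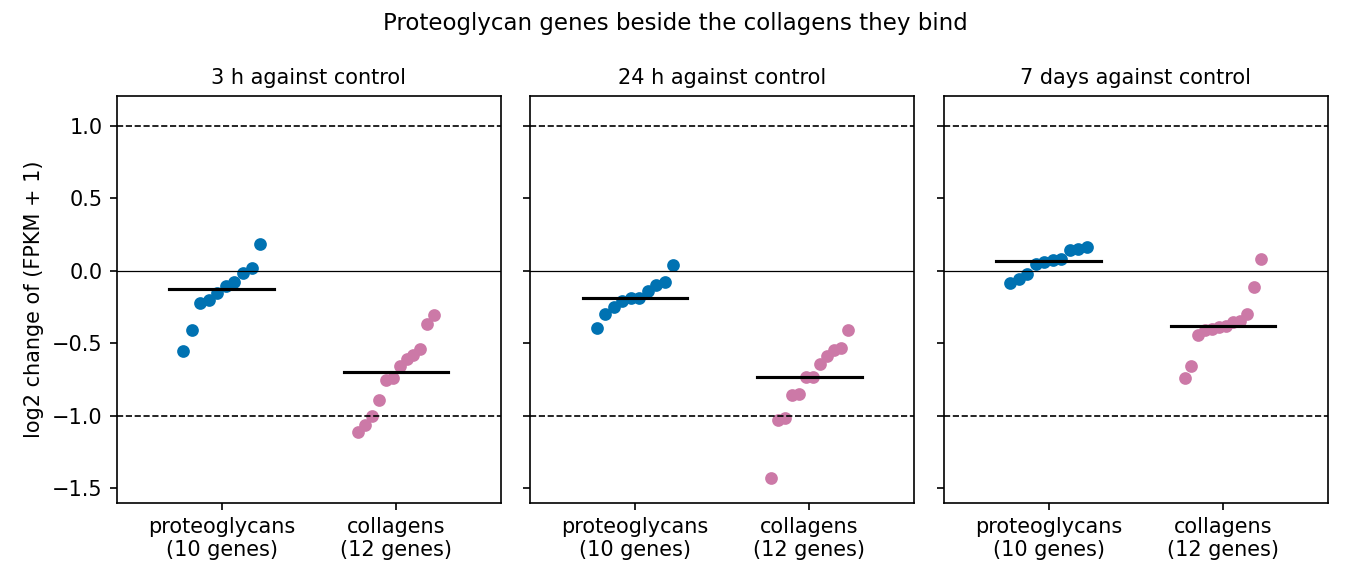
log2 change of (FPKM + 1) against the control for the 10 proteoglycan genes and 12 collagen genes, with 1 panel per time, each point a gene and each bar the median of its list. The collagen medians (-0.70, -0.73 and -0.38) lie below those of the proteoglycans (-0.13, -0.19 and 0.07). At 24 h the points of the lists do not overlap, though only just (Fmod at -0.39, Col12a1 at -0.41).

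The members fall into gene clusters. In the RefSeq annotation of GRCm38.p6, in which all 10 were found, Dcn, Lum, Kera and Epyc are successive coding genes on chromosome 10. Aspn, Omd and Ogn follow the family member Ecm2 on chromosome 13, Prelp and Fmod follow Optc on chromosome 1, and Bgn stands alone on the X chromosome. The deposited values were made on mm9, so the annotation served here for the order of genes only.

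Optc encodes opticin, a class III member of the vitreous, and was at 38.7 FPKM in the control, 28.9 after 3 h, 27.7 after 24 h and 40.8 after 7 days. At 3 h the log2 changes of the 3 chromosome 1 genes ran from -0.56 to -0.41, whereas those of the 4 chromosome 10 genes ran from -0.22 to 0.02 and those of the 4 chromosome 13 genes from -0.18 to 0.18. At 24 h the ranges overlapped, from -0.47 to -0.19 on chromosome 1, from -0.25 to 0.04 on chromosome 10 and from -0.30 to -0.10 on chromosome 13. At 7 days the chromosome 1 genes lay between 0.06 and 0.08, inside the ranges of chromosome 10 (-0.06 to 0.15) and chromosome 13 (-0.08 to 0.10). Against the control, the chromosome 1 genes thus lay apart at 3 h only, and they include Prelp and Fmod, the lowest members then. Classes did not separate in this way, since class II held both the lowest (Prelp) and the highest (Omd) change at 3 h.

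Genes with the closest pattern to Fmod and Prelp, the members with the widest ranges, were sought among 10497 genes with a mean of at least 5 FPKM, by the root mean square difference of the 4 centred log2 values. The nearest to Fmod were Igfbp5 (0.027), Scarf2 (0.034) and Optc (0.035), its near neighbour on chromosome 1. The nearest to Prelp were Cryga (0.025), a lens crystallin gene, Marcks (0.028) and Cmtm7 (0.033). With 4 values per gene many patterns lie close together, and these names are a description only.

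**Figure D4:**
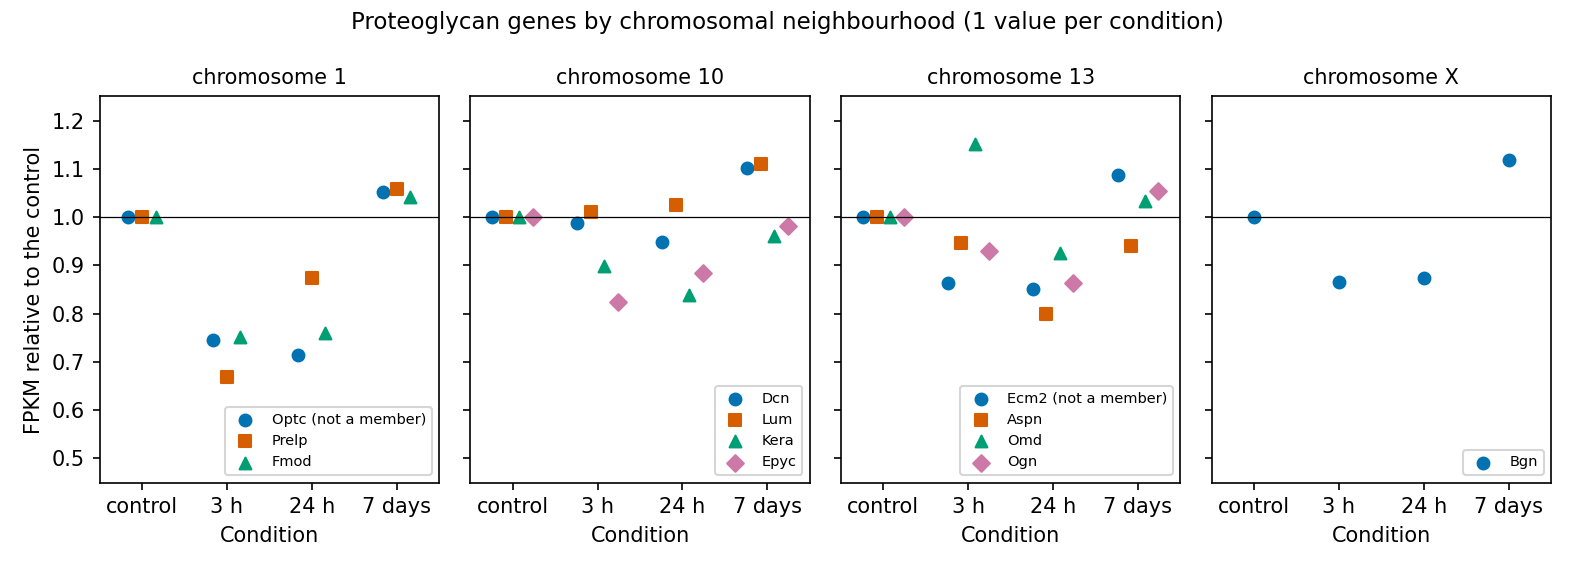
FPKM relative to the control for the proteoglycan genes grouped by chromosome, with 1 point per gene and condition. The 3 genes of chromosome 1 (Optc, Prelp and Fmod) lie between 0.67 and 0.75 at 3 h and between 1.04 and 1.06 at 7 days. At 24 h they lie further apart, with Prelp at 0.87, Fmod at 0.76 and Optc at 0.71. Optc and Ecm2 are neighbours outside the 10 genes.

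The sequences before the start of Fmod and Prelp are shown because these chromosome 1 neighbours were the lowest members at 3 h, with that of Bgn beside them, the member outside the clusters. They are the RefSeq promoter entries of GRCm38.p6 from 250 to 21 bases before the annotated start, 5′ to 3′ on the strand of the gene, at chr1:134037004-134037233 (plus strand) for Fmod, chr1:133921422-133921651 (minus strand) for Prelp and chrX:73483351-73483580 (plus strand) for Bgn. Capitals mark matches, on either strand, to the TATA box (letters TATAAA), to the CCAAT box, to the GC box (letters GGGCGG) or to the E-box (letters CANNTG), with no overlap between matches here.
Fmod: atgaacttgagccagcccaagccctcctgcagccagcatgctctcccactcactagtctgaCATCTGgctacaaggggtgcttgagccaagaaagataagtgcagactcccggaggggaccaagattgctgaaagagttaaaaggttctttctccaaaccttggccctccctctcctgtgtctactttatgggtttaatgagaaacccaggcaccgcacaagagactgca
Prelp: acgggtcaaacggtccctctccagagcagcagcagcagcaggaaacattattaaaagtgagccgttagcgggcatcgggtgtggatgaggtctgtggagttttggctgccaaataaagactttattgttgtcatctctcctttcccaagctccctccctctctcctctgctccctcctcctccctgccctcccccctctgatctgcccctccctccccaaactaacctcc
Bgn: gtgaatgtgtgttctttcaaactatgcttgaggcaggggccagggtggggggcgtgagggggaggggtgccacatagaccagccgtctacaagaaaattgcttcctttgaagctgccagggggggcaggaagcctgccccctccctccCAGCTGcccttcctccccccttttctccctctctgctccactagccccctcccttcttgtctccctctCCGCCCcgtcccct

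Fmod held a single E-box at -189 to -184 from the start, Bgn an E-box and a GC box, and Prelp none of these motifs in this window. Over 32851 promoter entries of the same length, 63.5% held an E-box, 29.8% a GC box, 32.2% a CCAAT box and 11.8% a TATA box. The lowest members at 3 h thus shared no match among these motifs. Promoter entries were found for 8 of the 10 genes. Dcn and Lum had none.

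The sugar chains of these proteoglycans are built by other genes, taken from fixed lists. Of 10 keratan sulfate enzyme genes that passed the filter, 1 was past the threshold at 3 h (0.789% of all genes) and none at 24 h (1.11%) or 7 days (0.599%). It was Chst5, the sulfotransferase of corneal keratan sulfate in the mouse, at 12.7 FPKM in the control, 5.73 after 3 h, 12.8 after 24 h and 14.5 after 7 days. The 3 h value was 0.45 of the control, just past the threshold (-1.02). The most abundant of the list by mean level were B4galt1 (22.3, 27.1, 21.7 and 19.7 FPKM), Chst2 (14.4, 14.1, 14.2 and 18.7 FPKM) and B3gnt2 (10.02, 12.2, 12.3 and 11.9 FPKM).

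No gene of the linker list (7 genes), the chondroitin and dermatan sulfate list (14 that passed the filter) or the sulfate supply list (7) was past the threshold at any time against the control, and their medians lay between -0.10 and 0.04. Chst14, the sulfotransferase of dermatan sulfate, was at 4.54 FPKM in the control and 2.79 at 3 h (-0.55), and Chst3, a chondroitin sulfotransferase, went from 5.18 to 2.88 FPKM at 24 h (-0.67). Neither was past the threshold, and both are named after their values were seen. In the list of lysosomal breakdown enzymes (13 genes) none was past it. Of all genes, 0.789% were past the threshold at 3 h, 1.11% at 24 h and 0.599% at 7 days. Lists this short with none past it do not stand apart from that background.

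Of 5 processing genes 4 passed the filter, and of 11 cleaving proteinases 7 did. None of those that passed was past the threshold at any time against the control. With 0.789%, 1.11% and 0.599% of all genes past it at 3 h, 24 h and 7 days, this does not set these lists apart. Bmp1, the proteinase that trims the propeptide of biglycan, was at 14.6 FPKM in the control, 11.5 after 3 h, 16.2 after 24 h and 13.8 after 7 days. Of the cleaving proteinases, Mmp14 (34.6 FPKM, and 17.7 at 3 h) and Mmp2 (57.4, 36.8, 37.02 and 40.1 FPKM) were highest in the control, and Mmp3 was at 64.6, 50.4, 65.7 and 63.3 FPKM.

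Among 20 receptors, growth factors and matrix partners of the proteoglycans, 2 were past the threshold after 3 h, 2 after 24 h and 1 after 7 days. Of all genes, 0.789%, 1.11% and 0.599% were past it in the same order. Eln, which encodes elastin, was past it downwards each time (22.4 FPKM in the control, then 6.96, 5.89 and 9.94), and Fbn1, which encodes fibrillin, at 24 h (22.7 to 8.97 FPKM). Ctgf, a matricellular growth factor, was past it upwards at 3 h (56.3 to 123.4 FPKM). The receptors for soluble biglycan, Tlr2 (3.37, 2.69, 3.43 and 4.03 FPKM) and Tlr4 (4.28, 5.11, 4.50 and 4.76 FPKM), had low values throughout.

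Of 8 other family genes, 7 passed the filter and none was past the threshold against the control. Over all genes the share past it was 0.789% at 3 h, 1.11% at 24 h and 0.599% at 7 days, so this is no difference from the background. Chad, which encodes chondroadherin, was at 17.6 FPKM in the control, 13.7 after 3 h, 16.6 after 24 h and 20.7 after 7 days. Tsku, which encodes a secreted signalling modulator, was at 5.71, 9.12, 7.62 and 6.72 FPKM, and was the only one of the 7 above the control by more than 0.2 log2 units at 3 h (0.59). The median of the 7 was -0.08 after 3 h, 0.06 after 24 h and 0.15 after 7 days.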

How the data were processed

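The table holds FPKM values that the authors deposited, 1 per gene and condition. The submitters' processing notes name TopHat2 (version given as 2), Cuffdiff 2.2.1, bcl2fastq 1.8.3 and the mm9 build, and Cufflinks stands in the series' design text. Gene annotation, scaling between libraries, treatment of multiply mapped fragments and whether a value is a pooled library or a mean: not given in the sources used here. Column sums ran from 626973 to 680305 FPKM, so abundant transcripts can move all other values.

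With pandas 2.3.3 and numpy 2.4.6, log2 changes were computed with a pseudocount of 1 over genes with a mean of at least 1 FPKM (14194 genes), with a threshold of 1. No test was run, because each condition has 1 value. The calculation was tested on simulated data. The 10 members were named throughout. Genes of other lists could be named if past the threshold or among the 3 most abundant of a list. Not every such gene is named, mainly in lists of other cell types. Tlr2, Tlr4, Acan, Matn1, Ibsp, Chst3, Chst14, Col12a1 and Tsku fall outside that rule and were chosen after their values were seen. Of 338 list entries, 334 were found. Members and lists were chosen with earlier results of these data known. Alternatives were another pseudocount, filter, threshold and 3 rescalings. The values of 1 listed gene are not reported here.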

Additional observations from a re-analysis of the deposited data

Results flagged for a closer look

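Bgn lay on opposite sides of the control at different times, below it at 3 h (log2 change -0.20) and at 24 h (-0.19) and above it at 7 days (0.16), with 1 value per time. The difference was not tested, and the 3 values share the same control. Bgn is X-linked, and the 7-day sample held male tissue while the others held next to none. Time and sex therefore cannot be told apart in its 7-day value. No other member had changes of at least 0.1 in both directions as deposited, but this depends on the setting. With a pseudocount of 0.1, Omd was at 0.20 at 3 h and -0.11 at 24 h, and without the tissue lists in the sum Bgn at 7 days was at 0.052.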

How the results depend on the processing

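No paired analysis was possible because each condition has 1 value. No count of members past the threshold moved from 0 under any alternative, including a threshold of 1.5-fold. Setting the columns to an equal sum of all genes but those of the surface epithelium, blood, muscle and lens lists moved the members' median log2 change at 3 h to -0.31, at 7 days to -0.043 and from 3 h to 24 h to 0.090, and leaving out small RNA genes too gave 0.0047 for the last. These rescalings shift all genes alike: the median of all genes went to -0.14, -0.094 and 0.090 in the same order, and to 0.015 for the last without small RNA genes, so the members relative to all genes moved by less than 0.02. The shares of all FPKM became 0.291%, 0.242%, 0.254% and 0.292% (control, 3 h, 24 h and 7 days) without those lists in the sum, and 0.350%, 0.313%, 0.310% and 0.366% without small RNA genes as well, since the sum is smaller by construction. Medians moved by no more than 0.1 and kept their sign under a pseudocount of 0.1, no filter, a mean of at least 5 FPKM and the median ratio. Counting error limits Epyc and Omd most, and the spread between animals is not known for any gene.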
